A study of Rattus norvegicus with 23 samples.

Results

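Glutathione transferases and antioxidant genes of the NRF2 response were examined in the CA3 field of the rat hippocampus. The set comprised 10 genes taken by symbol, namely the transferases Mgst1, Gstp1, Gsta4 and Gstm1, the transcription factor gene Nfe2l2, its targets Hmox1, Nqo1 and Gclc, and the peroxide and superoxide enzymes Prdx6 and Sod2. Every probe set that the platform's annotation assigns to one of these symbols alone was included, which gave 11 probe sets (2 for Gclc and 1 for each other gene) for 10 of the 14217 named genes on the array. Expression was measured with 1 Affymetrix array per animal in untreated male Long-Evans rats of 3 groups. Aged impaired rats were 24 to 26 months old and learned the Morris water maze worse than young rats (n = 8). Aged unimpaired rats were of the same age, and their learning index lay within the young range (n = 6). Young rats were 6 months old (n = 9). The aged groups are therefore a split by behaviour of animals of one age, and all animals had been through the maze before CA3 was dissected.

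Glutathione transferases join the tripeptide glutathione to electrophiles such as the aldehydes formed when membrane lipids are oxidised, and Mgst1 does so in membranes while Gstp1, Gsta4 and Gstm1 are soluble enzymes of the pi, alpha and mu classes. NRF2, the product of Nfe2l2, is held low by KEAP1-dependent degradation and, when oxidants or electrophiles block that degradation, it binds antioxidant response elements together with small MAF proteins and raises genes of glutathione synthesis, quinone reduction and haem breakdown. In brain this response is best known from astrocytes, which supply neurons with precursors of glutathione.

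Values were log2 expression values, and 10 of the 11 probe sets, for 9 genes, passed the filter, which asked for 6 or more arrays with a log2 value of 4 or higher. A change was called with limma at an adjusted p of at most 0.05 over the 14647 probe sets tested. In aged impaired against young animals, 4 of the 10 probe sets rose and none fell, where 9.76% of all tested probe sets were called (3.88% higher and 5.88% lower). In aged unimpaired against young animals 3 rose and none fell, where 2.06% were called (1.37% higher and 0.696% lower). With both aged groups together against young, 3 rose and none fell, where 6.9% were called (3.34% higher and 3.56% lower). The genes that rose in both were Mgst1, Gstp1 and Nfe2l2, and Prdx6 was the fourth in aged impaired animals, with a difference between the aged groups that did not pass (limma adjusted p = 0.421). These comparisons share the young animals, so their results are not independent. The median log2 difference over the 10 probe sets was 0.16 in aged impaired and 0.12 in aged unimpaired animals, each against young, beside -0.02 and -0.002 over all tested probe sets. The members were chosen with earlier results of these data known, so these counts and medians, beside those of all probe sets, are a description. In aged impaired against aged unimpaired animals 0 of the 10 passed limma's test, where 0.778% of all did (0.676% higher and 0.102% lower), all 10 had overlapping groups, where 0.287% of all did not overlap, and 1 of them (Gstp1) had an unadjusted p under 0.05, as did 15.2% of all.

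**Figure D1:**
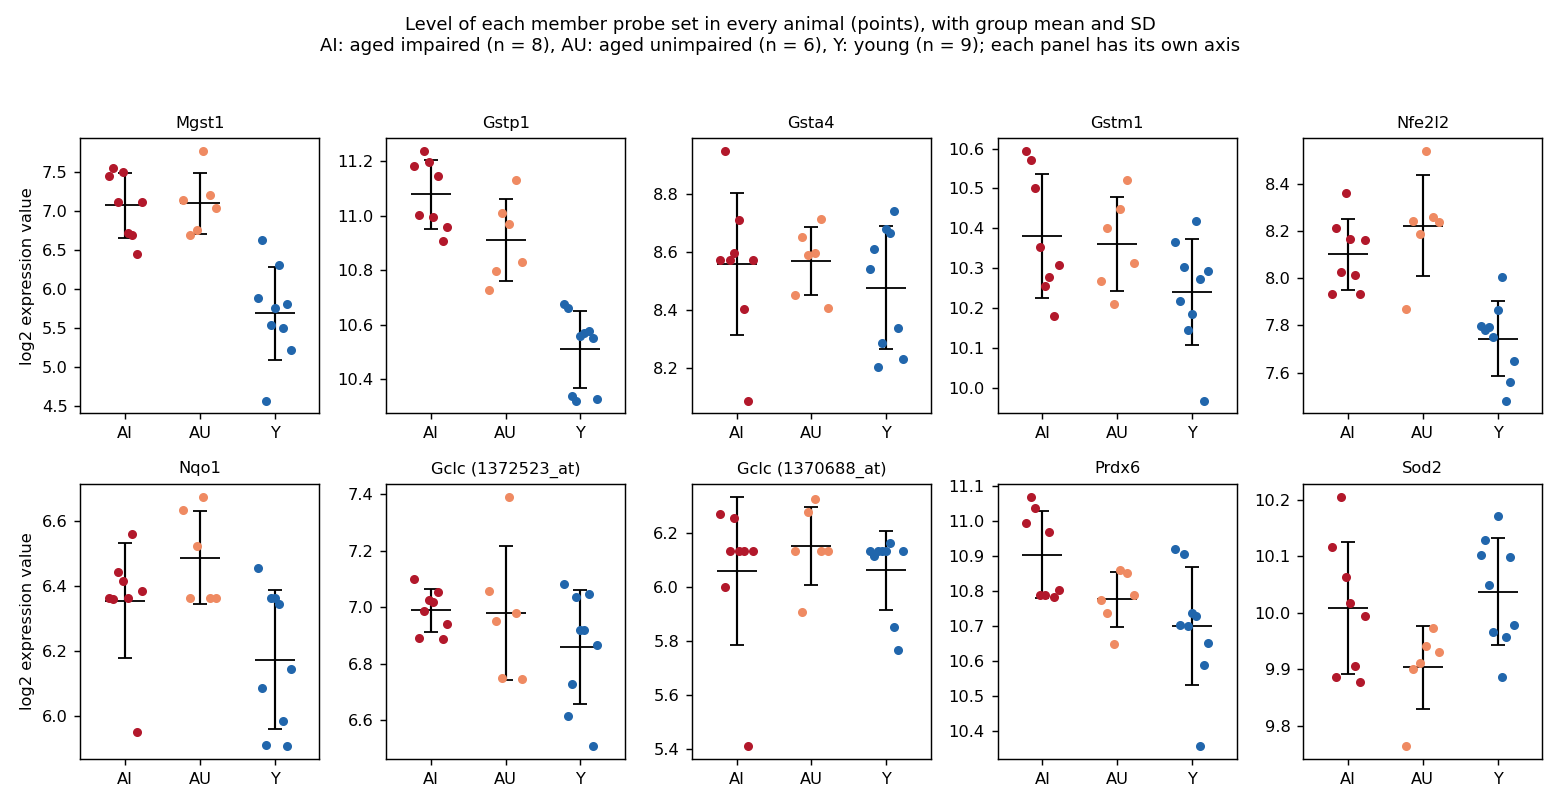
Log2 expression value (vertical axis, a separate scale in each panel) of the 10 member probe sets above the filter in every animal. Points are animals in aged impaired (AI, n = 8), aged unimpaired (AU, n = 6) and young (Y, n = 9) groups, bars are the mean and SD, and the aged points of Mgst1, Gstp1 and Nfe2l2 lie mostly above the young ones while those of Gsta4, Gclc (the brighter probe set first) and Sod2 overlap with them.

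The promoters of the 3 genes that rose in both aged groups are shown with that of Sod2, which did not pass, because they differ in whether they hold the letters of the antioxidant response element core. The core TGACNNNGC was searched on both strands from 250 bases before to 50 bases after the annotated start, and each such window is 300 bases of RefSeq's GRCr8 assembly. A promoter was given for 8 of the 10 members. The core was present in 3 of them, Gstp1, Nfe2l2 and Sod2, and in 12.1% of all 33469 rat promoters. In Gstp1 it lies on the gene's strand at positions -61 to -53 from the start and overlaps the AP-1 site TGACTCA at -61 to -55, a motif added after the first search that 4.63% of promoters hold. In Nfe2l2 it lies on the same strand at 39 to 47, and in Sod2 on the opposite strand at -35 to -27. The windows of Mgst1, Gsta4, Gstm1, Nqo1 and Gclc do not hold these letters. Sequence outside the windows was not searched, so whether these genes have the core elsewhere is not known. The windows are Mgst1 at chr4:172760680-172760979 (plus strand), Gstp1 at chr1:210769656-210769955 (minus strand), Nfe2l2 at chr3:81028950-81029249 (minus strand) and Sod2 at chr1:50050119-50050418 (minus strand), each printed 5′ to 3′ on the gene's strand with the core in capitals.
Mgst1: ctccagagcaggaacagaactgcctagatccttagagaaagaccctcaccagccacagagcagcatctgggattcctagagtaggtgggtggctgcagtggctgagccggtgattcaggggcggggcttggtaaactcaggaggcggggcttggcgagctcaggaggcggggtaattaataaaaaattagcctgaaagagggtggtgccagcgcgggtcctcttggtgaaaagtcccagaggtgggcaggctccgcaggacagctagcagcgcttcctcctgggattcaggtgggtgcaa
Gstp1: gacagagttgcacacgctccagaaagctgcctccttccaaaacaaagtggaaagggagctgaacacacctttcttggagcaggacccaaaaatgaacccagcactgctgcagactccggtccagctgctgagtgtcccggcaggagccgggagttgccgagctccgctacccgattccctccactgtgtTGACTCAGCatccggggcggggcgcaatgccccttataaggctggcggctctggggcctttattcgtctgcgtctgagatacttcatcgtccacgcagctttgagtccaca
Nfe2l2: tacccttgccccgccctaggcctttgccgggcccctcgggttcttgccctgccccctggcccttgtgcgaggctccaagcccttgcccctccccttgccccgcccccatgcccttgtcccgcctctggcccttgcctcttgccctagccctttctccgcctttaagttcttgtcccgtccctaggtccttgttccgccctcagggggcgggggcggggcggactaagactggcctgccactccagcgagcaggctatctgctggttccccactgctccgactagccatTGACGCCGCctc
Sod2: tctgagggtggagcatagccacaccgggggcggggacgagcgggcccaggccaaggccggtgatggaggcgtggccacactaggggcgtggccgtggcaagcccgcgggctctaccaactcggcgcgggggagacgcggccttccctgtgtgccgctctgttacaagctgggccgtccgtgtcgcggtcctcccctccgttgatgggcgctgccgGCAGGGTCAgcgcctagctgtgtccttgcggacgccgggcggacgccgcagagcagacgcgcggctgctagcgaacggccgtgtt

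Among the transferases, Mgst1, the microsomal enzyme that also reduces lipid hydroperoxides, showed the largest difference of the set. Its log2 values ran from 6.46 through a median of 7.12 to 7.56 in aged impaired animals, from 6.70 through 7.09 to 7.78 in aged unimpaired animals, and from 4.57 through 5.76 to 6.63 in young animals. All 6 aged unimpaired animals and 7 of 8 aged impaired animals lay above every young animal, and aged impaired animal 7 was the exception. Mgst1 was 2.61-fold higher in aged impaired than in young animals (log2 difference 1.39 ± 0.23 SE, limma adjusted p = 0.000845). It was 2.66-fold higher in aged unimpaired than in young animals (1.41 ± 0.25 SE, adjusted p = 0.00409). The group means were 7.08 ± 0.42 (SD, n = 8) in aged impaired and 7.10 ± 0.39 (SD, n = 6) in aged unimpaired animals, against 5.69 ± 0.60 (SD, n = 9) in young animals. The difference between the aged groups was -0.03 with a 95% confidence interval from -0.55 to 0.50, so that the size of any difference between the aged groups is known only within that range.

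Gstp1, the pi class transferase, changed less in size and more evenly between animals. Its log2 values ran from 10.91 through a median of 11.07 to 11.24 in aged impaired animals, from 10.73 through 10.90 to 11.13 in aged unimpaired animals and from 10.32 through 10.56 to 10.68 in young animals. No aged animal of either group overlapped with a young animal, and a lack of overlap was seen in 0.853% of all tested probe sets in aged impaired and 0.935% in aged unimpaired animals, each against young. Gstp1 was 1.48-fold higher in aged impaired than in young animals (0.57 ± 0.07 SE, adjusted p = 3.54e-05) and 1.32-fold higher in aged unimpaired than in young animals (0.40 ± 0.07 SE, adjusted p = 0.00534). The group means were in the order aged impaired (11.08 ± 0.13 SD), aged unimpaired (10.91 ± 0.15 SD) and young (10.51 ± 0.14 SD). The step between the aged groups, 0.17 ± 0.07 SE, did not pass (adjusted p = 0.279), and 4 of 8 aged impaired animals lay above every aged unimpaired one.

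Gsta4, an alpha class enzyme known for conjugating the lipid aldehyde 4-hydroxynonenal, and Gstm1, a mu class enzyme, did not pass in any comparison. Gsta4 ran from 8.09 through 8.57 to 8.95 in aged impaired animals, from 8.41 through 8.59 to 8.72 in aged unimpaired animals and from 8.21 through 8.54 to 8.74 in young animals, so that the groups overlapped almost wholly. Its difference was 0.08 ± 0.10 SE in aged impaired against young animals (adjusted p = 0.628), with a 95% interval from -0.12 to 0.28. Gstm1 ran from 10.18 through 10.33 to 10.59 in aged impaired animals, from 10.21 through 10.36 to 10.52 in aged unimpaired animals and from 9.97 through 10.27 to 10.42 in young animals. Its differences from young were 0.14 ± 0.07 SE in aged impaired (adjusted p = 0.178) and 0.12 ± 0.07 SE in aged unimpaired animals (adjusted p = 0.409), with 95% intervals from 0.003 to 0.28 and from -0.03 to 0.27. Members of one transferase class are close in sequence, and how much of a probe set's signal comes from a close relative was not tested.

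Nfe2l2, the gene of NRF2 itself, rose in both aged groups. Its log2 values ran from 7.93 through 8.09 to 8.36 in aged impaired animals, from 7.87 through 8.24 to 8.54 in aged unimpaired animals and from 7.48 through 7.78 to 8.01 in young animals. The ranges met at their edges: 6 of 8 aged impaired and 5 of 6 aged unimpaired animals lay above every young animal, and a single young animal, number 6, accounted for the overlap. Nfe2l2 was 1.28-fold higher in aged impaired than in young animals (0.36 ± 0.08 SE, adjusted p = 0.00862) and 1.39-fold higher in aged unimpaired than in young animals (0.48 ± 0.09 SE, adjusted p = 0.00591). The aged unimpaired mean (8.22 ± 0.21 SD) lay above that of aged impaired animals (8.10 ± 0.15 SD), and the difference, aged impaired minus aged unimpaired, was -0.12 ± 0.09 SE and did not pass (adjusted p = 0.572). These values are of the transcript, and NRF2 activity is set largely by the stability of the protein, which arrays do not measure.

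**Figure D2:**
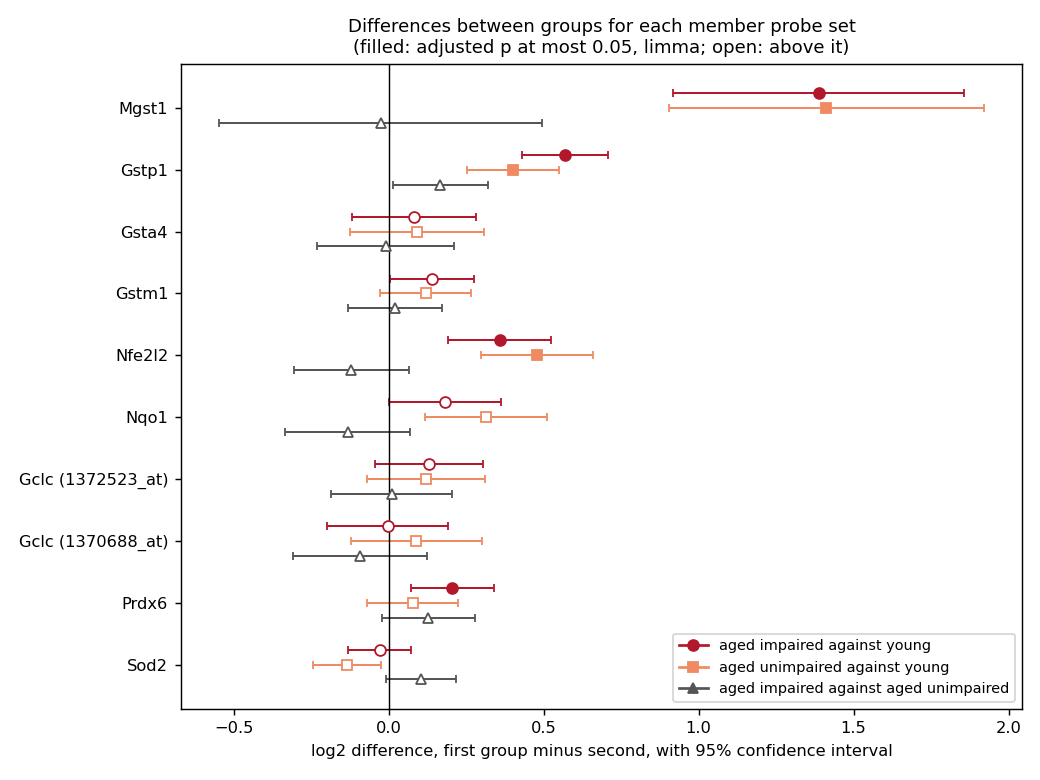
Log2 difference of each member probe set (horizontal axis, first group minus second) with its 95% confidence interval, in aged impaired against young (circles), aged unimpaired against young (squares) and aged impaired against aged unimpaired (triangles). Filled symbols passed limma's adjusted p of 0.05. Mgst1 stands at 1.39 and 1.41 in the aged groups against young, Gstp1 at 0.57 and 0.40 and Nfe2l2 at 0.36 and 0.48, and every triangle is open.

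Of the 3 genes grouped here as NRF2 targets, Hmox1 could not be tested, and Nqo1 and Gclc did not pass in the comparisons of single groups. Hmox1, which encodes the inducible haem oxygenase, lay at the floor of the scale, with values of 2.19 to 2.20 in aged impaired animals and 2.19 in every aged unimpaired and young animal. It was not tested, and its level on these arrays is known only as a bound below the filter. Nqo1, a quinone reductase, ran from 5.95 through 6.37 to 6.56 in aged impaired animals, from 6.36 through 6.44 to 6.67 in aged unimpaired animals and from 5.90 through 6.14 to 6.46 in young animals. The lowest aged unimpaired animal lay above 6 of the 9 young animals, and 3 of 6 aged unimpaired animals lay above all of them. Its difference from young was 0.18 ± 0.09 SE in aged impaired (adjusted p = 0.186) and 0.31 ± 0.09 SE in aged unimpaired animals (adjusted p = 0.0877). With both aged groups together it was 0.25 ± 0.08 SE, just outside the threshold (adjusted p = 0.053). That comparison passed without aged impaired animal 7, whose Nqo1 value was the lowest of its group, or without young animal 1, 4, 5 or 6, with adjusted p between 0.0195 and 0.0489. Aged unimpaired against young animals passed without aged impaired animal 7, which enters that fit through the shared spread (adjusted p = 0.0498).

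Gclc, the catalytic subunit of the enzyme that limits glutathione synthesis, had a pair of probe sets, and neither passed. The brighter one ran from 6.89 through 7.002 to 7.10 in aged impaired animals, from 6.75 through 6.96 to 7.39 in aged unimpaired animals and from 6.51 through 6.92 to 7.08 in young animals. Its difference was 0.13 ± 0.08 SE in aged impaired against young (adjusted p = 0.339) and 0.12 ± 0.09 SE in aged unimpaired against young animals (adjusted p = 0.533). The dimmer one held exactly the same log2 value of 6.13 on 11 of 23 arrays, and that value was the median of each of the 3 groups. Its differences were -0.003 ± 0.09 SE (adjusted p = 0.989) and 0.09 ± 0.10 SE (adjusted p = 0.708) in the same comparisons. Nqo1 likewise held one value, 6.36, on 7 arrays, so the middle of both distributions was compressed to a point.

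Prdx6, a peroxiredoxin that reduces phospholipid hydroperoxides, passed narrowly in aged impaired animals. Its log2 values ran from 10.78 through 10.88 to 11.07 in aged impaired animals, from 10.65 through 10.78 to 10.86 in aged unimpaired animals and from 10.35 through 10.70 to 10.92 in young animals. Of the 8 aged impaired animals 4 lay above every young animal, and 4 lay above every aged unimpaired animal. Prdx6 was 1.15-fold higher in aged impaired than in young animals (0.21 ± 0.06 SE, adjusted p = 0.0468). In aged unimpaired against young animals the difference was 0.08 ± 0.07 SE (adjusted p = 0.62). The call ended when any 1 of 16 animals was left out (aged impaired 1, 2, 3 or 6, aged unimpaired 1, 2, 6, 7 or 8, young 2, 4, 5, 6, 7, 8 or 9), with adjusted p then between 0.0507 and 0.0952. With a covariate from control rows, described with the array checks, the difference in aged impaired against young animals was 0.13 (adjusted p = 0.144).

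Sod2, the manganese superoxide dismutase of mitochondria, had values that stood lower in aged unimpaired animals without passing. Its log2 values ran from 9.88 through 10.01 to 10.21 in aged impaired animals, from 9.76 through 9.92 to 9.97 in aged unimpaired animals and from 9.89 through 10.05 to 10.17 in young animals. The difference was -0.03 ± 0.05 SE in aged impaired against young (adjusted p = 0.747) and -0.13 ± 0.05 SE in aged unimpaired against young animals (adjusted p = 0.192). In aged impaired against aged unimpaired animals it was 0.11 ± 0.05 SE (adjusted p = 0.37), with 5 of 8 aged impaired animals above every aged unimpaired one. Its 95% interval in aged impaired against young animals, from -0.13 to 0.07, was the narrowest of the 10 in that comparison.

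Common variation of the members between animals of the same group was measured by the Pearson r of their deviations from the group means over the 23 arrays. Of the 45 pairs of tested probe sets, 44 had a positive r, with a median of 0.33 (jackknife SE 0.14) and a range from -0.09 to 0.71, and 7 were over 0.5. All values of an array share its hybridisation and scaling, so these coefficients are given as a description. The same figures over pairs of all tested probe sets were not computed, so whether the members differ from other genes in this is not known. Nqo1 and the dimmer Gclc probe set had the highest r (0.71, Spearman rho 0.62), which was 0.47 without the 2 arrays farthest from the Nqo1 median, aged impaired 7 and young 8. As given above, Nqo1 held 1 shared value on 7 of the 23 arrays and this Gclc probe set on 11. Nqo1 and the other Gclc probe set followed with 0.60 (rho 0.65), and with 0.54 without the same arrays. Mgst1 had an r of 0.57 with Gsta4 (rho 0.52) and 0.55 with Gstp1 (rho 0.55), which were 0.51 and 0.44 without young animals 2 and 3. Gstm1 went with Prdx6 at 0.55 (rho 0.70), which was 0.53 without young 8 and aged impaired 1. Gstp1 went with Sod2 at 0.58 (rho 0.58) and with Gsta4 at 0.50 (rho 0.49), which were 0.50 and 0.45 without young 4 and aged unimpaired 1.

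**Figure D3:**
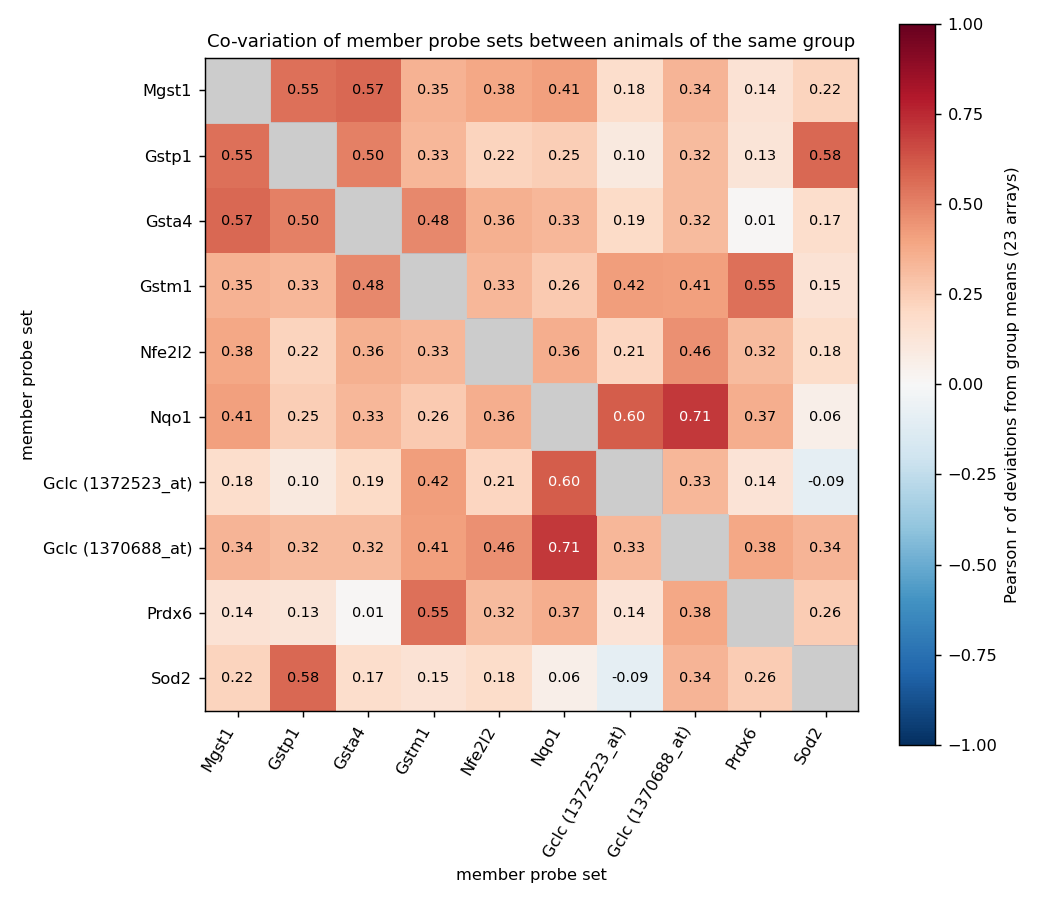
Pearson r (colour and printed value) between the deviations of each pair of member probe sets from their group means over 23 arrays, with the probe sets on both axes (the brighter Gclc probe set before the dimmer) and the diagonal in grey. The highest values join Nqo1 to the Gclc probe sets (0.71 and 0.60), and the brighter Gclc probe set with Sod2 is the single negative pair (-0.09).

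Part of this common variation came with 1 array. Aged impaired animal 7 had the lowest value of its group for 9 of the 10 tested member probe sets and shared the lowest with aged impaired animal 1 for the remaining one, Nfe2l2. Counted the same way, it was the lowest of its group for 25.5% of all tested probe sets, and the other arrays of that group for 8.08% to 13.6%. Without that array the median r over the 45 pairs was 0.20. Mgst1, Gstp1 and Nfe2l2 remained called in both aged groups against young when any single array was left out.

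Over all 11345 candidate probe sets of other named genes (11344 for Gclc), those closest to a member in these deviations had r between 0.68 and 0.86. For Mgst1 they were Vamp4 (0.82), Sbds (0.80) and Bcas1 (0.78), and for Gstp1 they were Phlpp1 (0.81), Opalin (0.78) and Wscd1 (0.77). Gsta4 was closest to Hapln2 (0.79), Ptp4a3 (0.75) and Dek (0.75), and Gstm1 to Mrpl53 (0.86), Snx5 (0.84) and Srebf1 (0.83). Nfe2l2 was closest to Elavl1 (0.76), Polr2f (0.75) and Icoslg (0.74), and Prdx6 to Akap8l (0.84), the glutamate transporter gene Slc1a3 (0.83) and Peli2 (0.83). For Sod2 they were Vrk1 (0.78), Glod4 (0.75) and Lmna (0.74), and for Gclc they were Epha6 (0.81), RGD1311745 (0.69) and Pip5kl1 (0.68). For Nqo1 the member Gclc stood among the closest, with 0.71 between Patz1 (0.78) and Cog6 (0.68).

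The other genes of the pathway were taken from 4 lists, with 1 probe set per gene, the one with the highest mean. The lists, too, were chosen with earlier results of these data known. Over all tested probe sets, 9.76% were called in aged impaired and 2.06% in aged unimpaired animals, each against young. Of 9 further glutathione transferases above the filter, Gsta1 alone passed in either aged group against young. Gsta1, an alpha class transferase, ran from 10.58 through 10.99 to 11.22 in aged impaired animals, from 10.77 through 10.94 to 11.13 in aged unimpaired animals and from 9.93 through 10.40 to 10.78 in young animals. It was 1.49-fold higher in aged impaired than in young animals (0.57 ± 0.09 SE, adjusted p = 0.000959), with 7 of 8 animals above every young one. It was 1.45-fold higher in aged unimpaired than in young animals (0.54 ± 0.10 SE, adjusted p = 0.0078), with 5 of 6 above. The list's median difference was 0.07 in aged impaired and 0.04 in aged unimpaired animals, each against young, and 8 further transferases on the array, among them Gsta3, Gstm2, Gstt1 and Mgst2, stayed below the filter.

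Of 16 further NRF2 targets above the filter, Ephx1, the microsomal epoxide hydrolase, passed in aged impaired against young animals. It was the only 1 of the 16 called there, where 9.76% of all tested probe sets were called. Ephx1 ran from 7.40 through 7.68 to 7.84 in aged impaired animals, from 7.18 through 7.43 to 7.48 in aged unimpaired animals and from 7.10 through 7.40 to 7.46 in young animals. It was 1.26-fold higher in aged impaired than in young animals (0.33 ± 0.07 SE, adjusted p = 0.00499), with 6 of 8 animals above every young one. In aged unimpaired against young animals its difference was 0.09 ± 0.07 SE (adjusted p = 0.553). The difference between the aged groups, 0.24 ± 0.08 SE, did not pass (adjusted p = 0.125), although 6 of 8 aged impaired animals also lay above every aged unimpaired one. The median over the 16 targets was -0.02 in aged impaired and 0.02 in aged unimpaired animals, each against young, close to that of all tested probe sets.

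Of 8 regulators of NRF2, the acetyltransferase and coactivator Ep300 passed in aged unimpaired against young animals alone (1.14-fold higher, 0.18 ± 0.05 SE, adjusted p = 0.0446), with 4 of 6 animals above every young one. Its difference between aged impaired and aged unimpaired animals was -0.18 ± 0.05 SE (adjusted p = 0.0719). In aged unimpaired against young animals 2.06% of all tested probe sets were called. The list of peroxide and superoxide enzymes had 21 further genes above the filter. It also holds glutaredoxins, Hmox2, Park7 and genes for thioredoxin, thioredoxin reductase and methionine sulfoxide reductases. None of its tested Sod, Cat, Gpx and Prdx genes passed in any comparison. The monothiol glutaredoxins Glrx3 (1.08-fold lower, -0.12 ± 0.04 SE, adjusted p = 0.0434) and Glrx5 (1.08-fold lower, -0.11 ± 0.04 SE, adjusted p = 0.0439) fell in aged impaired against young animals, with 4 and 3 of 8 animals below every young one. In that comparison 9.76% of all tested probe sets were called, 3.88% higher and 5.88% lower. The 2 calls among 21 genes were thus near the share of all. Like that of Prdx6, these 3 calls ended when single animals were left out: any 1 of 15 for Ep300, of 15 for Glrx3 and of 16 for Glrx5. The median over the 8 regulators was -0.003 in aged impaired and 0.03 in aged unimpaired animals, each against young, and that over the 21 genes of the enzyme list was -0.01 in aged impaired and -0.03 in aged unimpaired animals, each against young. Between aged impaired and aged unimpaired animals 0 genes of the 4 lists passed limma's test, and with 1 probe set per gene 0 further transferases, 1 regulator, 2 targets and 0 of the enzymes had an unadjusted p under 0.05. Over all tested probe sets of the same genes, 0 of 9 for transferases, 5 of 17 for regulators, 3 of 19 for targets and 0 of 23 for enzymes did, beside 15.2% of all tested probe sets, and 0 of these passed after adjustment. The regulator probe sets, described after their values were seen, differed in direction. Dimmer probe sets of Keap1, which marks NRF2 for degradation, Mafg, its small MAF partner, and the autophagy receptor gene Sqstm1 had log2 differences of 0.52 ± 0.18 SE (adjusted p = 0.157), 0.38 ± 0.13 SE (adjusted p = 0.154) and 0.38 ± 0.11 SE (adjusted p = 0.0808). The brighter probe sets of these genes had -0.05, -0.11 and 0.08 (adjusted p = 0.821, 0.546 and 0.448). The dimmer Keap1 probe set lay near the filter level, with means of 4.31 in aged impaired and 3.80 in aged unimpaired animals. A dimmer probe set of Cul3, the ubiquitin ligase scaffold that works with KEAP1, had -0.12 ± 0.05 SE (adjusted p = 0.219). The brighter one of Cul3 had -0.007 (adjusted p = 0.978), and Ep300 was negative as given above.

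**Figure D4:**
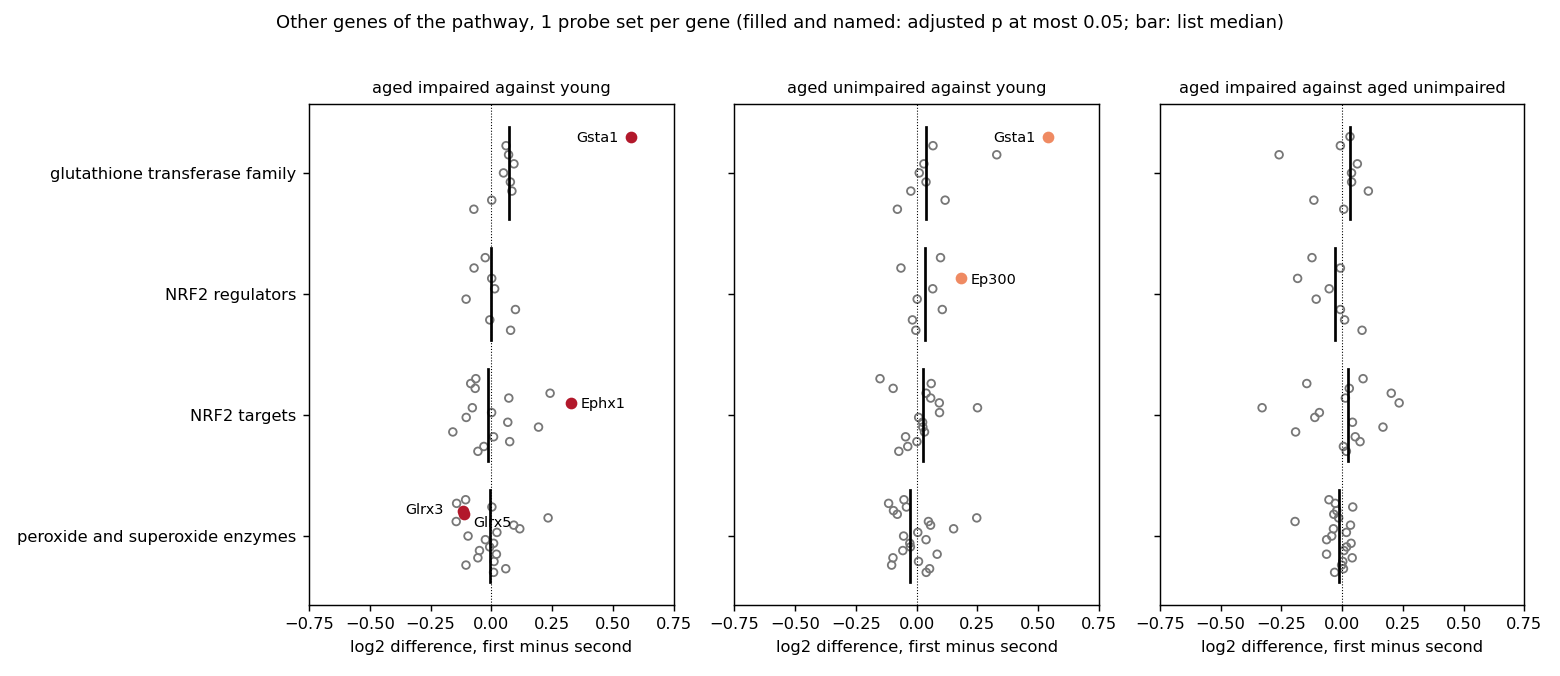
Log2 difference (horizontal axis, first group minus second) of the other pathway genes above the filter, 1 point per gene, by list (vertical axis) and comparison (panels), with the list median as a bar. Filled, named points passed an adjusted p of 0.05: Gsta1 at 0.57 and 0.54, Ephx1 at 0.33, Ep300 at 0.18, and Glrx3 and Glrx5 at -0.12 and -0.11.

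CA3 tissue is a mixture, and in such samples fewer cells of a type and less RNA per cell cannot be told apart. Of 8 tested microglial markers 6 rose in each aged group against young. The summed linear level of all 11 microglial markers on the array, tested or not, ran from 2263 to 3376 in aged impaired animals. It ran from 2144 to 2862 in aged unimpaired and from 1487 to 1835 in young animals. Both aged groups thus lay wholly above the young in this sum. The microglial markers Cx3cr1, Itgam and Ptprc stayed below the filter. Of 11 astrocyte markers 4 rose in aged impaired and 2 (Gfap and S100b) in aged unimpaired animals, with sums of 44622 to 57096 in aged impaired animals, 46004 to 54885 in aged unimpaired animals and 37391 to 46121 in young animals. Of 9 oligodendrocyte markers Mal fell in both aged groups, with sums of 37540 to 44677 in aged impaired animals, 36368 to 42616 in aged unimpaired animals and 38118 to 44250 in young animals. Of 6 endothelial markers 0 passed limma's test in either aged group against young, and 0 in aged impaired and 1 in aged unimpaired animals had an unadjusted p under 0.05. Of the choroid plexus and meningeal markers 4 of 5 and 4 of 7 stayed below the filter. Of those above it Ttr (choroid plexus) differed by 0.03 in aged impaired and -0.62 in aged unimpaired animals, each against young, and Igf2 (meningeal) by -0.81 (adjusted p = 0.125) and -1.29 (adjusted p = 0.0684). With both aged groups together against young Igf2 fell by 1.05 (adjusted p = 0.0359), while Lum and Dcn did not pass. The part of these cell types in the results above was not tested. The CA3 markers Nrip3 and Grik4 were well above the filter in all groups, with means of 11.83 and 8.97 in aged impaired animals, 11.97 and 9.03 in aged unimpaired animals and 12.13 and 9.15 in young animals. Of 7 CA3 markers 5 fell in aged impaired and 0 in aged unimpaired animals, each against young. Over all tested probe sets 5.88% and 0.696% were called lower. All 7 differences from young were negative, from -0.30 to -0.16 in aged impaired and from -0.22 to -0.06 in aged unimpaired animals. Between the aged groups 0 of the 7 passed. Markers of the neighbouring fields were above the filter too. The 4 tested CA1 markers (Wfs1, Fibcd1, Mpped1 and Pou3f1) all had positive differences, from 0.17 to 0.72 with a median of 0.43 in aged impaired and from 0.09 to 0.70 with a median of 0.22 in aged unimpaired animals, each against young. Of these 0 passed limma's test, and 1 in aged impaired and 0 in aged unimpaired animals had an unadjusted p under 0.05. The medians of the summed linear level of these CA1 markers lay close together: young 1182, aged impaired 1213, aged unimpaired 1169. Young sums varied widely (340 to 1953), and that range held every aged unimpaired sum (1025 to 1508). Aged impaired sums spanned 728 to 2525. The 3 tested dentate markers (Prox1, Calb1 and Trpc6) differed by -0.17 to 0.16 in aged impaired and by -0.02 to 0.08 in aged unimpaired animals, each against young, and 0 had an unadjusted p under 0.05. The part of neighbouring fields in the results was not tested.

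Across the arrays the median log2 value lay between 3.39 and 3.46 and each array's average correlation with all others between 0.9959 and 0.9974, with 0 identical pairs. The gap between control rows named GAPDH 5' and GAPDH M had a mean of 2.14 ± 0.09 (SD) in aged impaired animals. It was 2.28 ± 0.09 in aged unimpaired and 2.22 ± 0.10 in young animals, and between 2.02 and 2.46 on every array. The names of these rows may not match their contents, so whether the gap reflects RNA quality is not known. With this gap as a covariate Mgst1, Gstp1 and Nfe2l2 kept their calls in both aged groups against young.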

How the data were processed

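The values analysed were log2 expression values deposited by the authors for Affymetrix GeneChip rat genome arrays, made with GCRMA per the submitters' processing notes; the GCRMA version was not given in the sources used here. GCRMA corrects background, normalizes between arrays and summarises probes, so dim probe sets pile up at a floor of 2.19. The table held 31099 probe sets on 23 arrays. Of these, 57 controls were left out, and of the remaining 31042 the platform annotation gave 20826 a single gene symbol, 436 several and 9780 none. The 14647 probe sets that reached a log2 value of 4 on 6 or more arrays entered the test with limma 3.58.1 in R 4.3.3 (lmFit and eBayes, 1 mean per group, 20 residual and 2.35 prior degrees of freedom). Tests were two-sided, with Benjamini-Hochberg adjustment over all tested probe sets of a comparison. The script was first tested on simulated data. Array intensities have no counting depth, so the number of arrays limits precision.

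Members, gene lists and marker lists were chosen with earlier results of these data known. The genes named are all members, the called genes of each pathway list (at most 6 a comparison) and the 3 genes closest to each member. The control gap is the difference between control rows named GAPDH 5' and GAPDH M. The names of the control rows may not match their contents, so the gap may not reflect RNA quality. Replicate numbers did not pair the animals: a correlation over 0.1 was found in 0 of 8 same-numbered pairs of aged impaired and young animals (-0.06 to 0.09), 1 of 6 of aged unimpaired and young animals (-0.10 to 0.13) and 1 of 6 of aged impaired and aged unimpaired animals (-0.14 to 0.11), and pairing would need all. Promoters are from RefSeq, build GRCr8, which the probe set values do not depend on. The alternatives covered the filter, floor, scaling, weights, prior, arrays fitted, replicate block and the control gap as a covariate.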

Additional observations from a re-analysis of the deposited data

Results flagged for a closer look

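Of 30 groups of values examined (10 probe sets in 3 groups), 3 had a lowest animal that stood far from the rest by Dixon's test at the 95% level, which chance alone gives in about 5% of groups. Nqo1 was 5.95 in aged impaired animal 7, with the next animal at 6.36 and the highest at 6.56. The dimmer Gclc probe set was 5.41 in the same animal, with the next at 6.00 and the highest at 6.27. Sod2 was 9.76 in aged unimpaired animal 1, with the next at 9.90 and the highest at 9.97.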

How the results depend on the processing

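In aged impaired against young animals 4 member probe sets were called, and 3 to 4 over the other settings and with 1 array left out. For aged unimpaired against young the 3 calls were 2 to 3 over the other settings and 3 to 4 with 1 array left out. Between the aged groups 0 were called throughout, and for both aged groups against young the 3 calls were 3 to 4. Each single difference was counted repeatedly, once for each alternative setting it was fitted under and again for arrays left out. Of these repeated entries, 445 kept direction and side of the threshold, 7 lost the call, 5 gained it and 13 changed sign. The cause was not tested. With the replicate number as a block, Gstp1 in aged unimpaired against young animals had an adjusted p of 0.0705, Gsta1 0.0677 and Prdx6 in aged impaired against young 0.0614. Prdx6 also lost its call with no filter (0.104), array weights (0.0901), only 2 groups fitted (0.0824) and the control gap as a covariate (0.144). Nqo1 in both aged groups against young passed with a filter at a log2 value of 6 (0.0453), median centring (0.0366), array weights (0.0474) and the replicate block (0.0401).

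None of the differences that changed sign had passed the test, and these were mostly of aged impaired against aged unimpaired animals. Mgst1 became 0.023 with array weights and 0.098 with the replicate block, and ran from -0.107 to 0.109 with 1 array left out. Gsta4 became 0.015 with array weights and ran from -0.065 to 0.058. Gstm1 became -0.057 with the covariate and ran from -0.011 to 0.052. The brighter Gclc probe set ran from -0.037 to 0.092, the dimmer one from -0.141 to 0.00039, and Prdx6 became -0.0034 with the covariate. In aged impaired against young animals the dimmer Gclc probe set became 0.0104 with median centring and 0.0060 with the block, and ran from -0.040 to 0.090. Calls among regulators of NRF2, 1 as reported, were 0 with no filter, only 2 groups fitted, the block or the covariate, and 2 after quantile normalization. Calls on the list of peroxide and superoxide enzymes, 2 as reported and both glutaredoxins, were 0 with no filter, only 2 groups fitted or the block, and 1 with the covariate. The median correlation between members, 0.33, ran from 0.20 to 0.35 with 1 array left out.

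Over all probe sets, calls in aged impaired against young animals (1429) were 768 with no filter, 870 with the block and 937 with the covariate; 39.7% of the 1429 were higher, against 50% of the calls with median centring. In aged unimpaired against young animals (302) they were 126 with no filter, 672 with array weights and 86 with the block. In aged impaired against aged unimpaired animals (114) they were 2 with no filter, 222 with array weights, 180 after quantile normalization and 0 with 2 groups, the block or the covariate, and 2 without aged unimpaired animal 4 against 447 without aged unimpaired animal 7. In both aged groups against young (1010) they were 509 with no filter and 527 with the block.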
